A study of Mus musculus with 12 samples.

Results

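The transcripts described here encode the pyruvate dehydrogenase (PDH) complex and the enzymes that switch it off and on. They are 4 subunit genes (*Pdha1*, *Pdhb*, *Dlat* and *Pdhx*), 4 kinase genes (*Pdk1*, *Pdk2*, *Pdk3* and *Pdk4*) and 2 phosphatase genes (*Pdp1* and *Pdp2*) of the mouse. The members were taken by gene symbol, and all 10 were found among the 56748 genes of the deposited table. Each symbol had 1 row. The rule is a list of names and uses no measured value, though the list was chosen with earlier results of these data known.

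The libraries were made from mouse retina by Rod-TRAP, in which ribosomes carrying an HA tag in rods only are pulled down with their mRNA, and from the retinal lysate before the pull-down. The pull-down is called rods below and the lysate retina. Control mice carried RiboTag, i75-Rod-Cre and Pkm2fl/+, and experimental mice, called *Pkm2* Rodko, carried RiboTag, i75-Rod-Cre and Pkm2fl/fl. Cre was driven by the rhodopsin promoter, and every mouse was homozygous for Ribo-Tag, so the controls had Cre, the tag and 1 floxed *Pkm2* allele as well. Each of the 4 groups (control rods, Rodko rods, control retina and Rodko retina) had 3 libraries. The age is 2 weeks in the deposited description and 2 months in the study's methods. The labels do not say whether the libraries of a group came from separate animals, so the p-values measure only the spread between these libraries, which may be technical.

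The PDH complex turns pyruvate into acetyl-CoA inside mitochondria and so links glycolysis to the TCA cycle. *Pdha1* and *Pdhb* encode the alpha and beta chains of the E1 enzyme, which join in equal numbers, *Dlat* encodes the E2 acetyltransferase core and *Pdhx* the protein that anchors E3 to it. The PDK kinases phosphorylate the alpha chain of E1 and turn the complex off, and the PDP phosphatases remove the phosphate and turn it on. Photoreceptors are known for converting much of their glucose to lactate even when oxygen is present, and PDH stands where pyruvate goes to lactate or to mitochondria.

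Depth ranged from 13458890 to 22790074 reads per library. The targeted gene was checked first. Its row counts the PKM1 and PKM2 splice forms together, while the deletion is of PKM2. The study reported *Pkm2* lower and *Pkm1* higher in Rodko rods. The *Pkm* differences below are therefore not the degree of PKM2 loss. *Pkm* stood at 3690, 3606 and 3895 CPM (reads per 1000000 reads of a library after TMM scaling) in control rods and at 1689, 1583 and 1565 in Rodko rods, and it was lower in Rodko mice in rods (log2 difference -1.20, SE 0.0838, adjusted p = 5.36e-05 in limma) and in retina (log2 difference -0.65, SE 0.0742, adjusted p = 0.0219). The call in retina was kept without control retina replicate 2 (adjusted p = 0.020) and lost without any other 1 of the 6 retina libraries (adjusted p from 0.0627 to 0.949), with 10 or more reads required in every library (0.0933) and with the replicate number as a block (0.157). Without limma's variance trend *Pkm* passed in neither fraction (adjusted p = 0.0784 in rods and 0.277 in retina). TMM scaling puts all 12 libraries on 1 scale by assuming that most genes do not differ between them. Between rods and retina of control mice 59% of the genes tested differed under it in limma, so other scalings are also given below. The rod label was checked against markers. All 12 rod markers were higher in rods than in retina of control mice (median log2 difference 1.91), and the markers of cones, bipolar cells, Müller glia, amacrine, ganglion and horizontal cells, pigment epithelium, endothelium and microglia were lower, with medians between -0.70 (cones) and -3.15 (bipolar cells). No marker list had a gene at 0 in any group, and whether the reads of other cells' markers in rods came from those cells or from rods was not tested. In these bulk samples, fewer cells of a type and less RNA per cell cannot be told apart.

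Promoter sequence is shown for 2 pairs of members that parted between rods and retina, the E1 chains *Pdha1* and *Pdhb* and the kinases *Pdk1* and *Pdk3*, so that what lies before their starts can be read beside their levels. The values of these pairs follow below. The letters are the 250 bases before the RefSeq start of each gene on the gene's strand, on build GRCm38.p6, which is not the build named for the deposited files (GRCm39). Capitals mark ACGTG and GCGTG on either strand, the core of the sites that hypoxia-inducible factors bind. The windows lie at chrX:160138431-160138680 (minus strand) for *Pdha1*, chr14:8172993-8173242 (minus strand) for *Pdhb*, chr2:71872974-71873223 (plus strand) for *Pdk1* and chrX:93832151-93832400 (minus strand) for *Pdk3*.
*Pdha1*: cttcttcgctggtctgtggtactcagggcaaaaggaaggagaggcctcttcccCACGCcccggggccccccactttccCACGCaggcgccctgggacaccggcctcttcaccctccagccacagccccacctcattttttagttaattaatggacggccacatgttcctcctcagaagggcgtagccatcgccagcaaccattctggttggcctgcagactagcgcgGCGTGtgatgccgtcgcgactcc
*Pdhb*: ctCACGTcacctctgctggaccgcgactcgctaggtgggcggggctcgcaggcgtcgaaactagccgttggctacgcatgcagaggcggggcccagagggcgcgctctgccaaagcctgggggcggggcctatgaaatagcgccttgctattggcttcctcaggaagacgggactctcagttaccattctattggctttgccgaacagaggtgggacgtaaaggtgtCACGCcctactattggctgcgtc
*Pdk1*: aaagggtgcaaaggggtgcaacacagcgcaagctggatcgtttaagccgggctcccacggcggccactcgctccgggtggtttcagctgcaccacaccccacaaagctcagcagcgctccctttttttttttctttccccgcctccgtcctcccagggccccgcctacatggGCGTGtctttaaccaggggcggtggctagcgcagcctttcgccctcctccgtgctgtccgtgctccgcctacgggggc
*Pdk3*: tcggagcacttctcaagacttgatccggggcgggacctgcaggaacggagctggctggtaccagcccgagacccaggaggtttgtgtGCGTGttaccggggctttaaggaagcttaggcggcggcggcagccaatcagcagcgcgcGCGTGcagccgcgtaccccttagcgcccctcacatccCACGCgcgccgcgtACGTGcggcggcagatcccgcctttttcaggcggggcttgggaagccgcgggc
The core was found 3 times in the *Pdha1* window, 2 times in that of *Pdhb*, 1 time in that of *Pdk1* and 4 times in that of *Pdk3*. The bases that follow the *Pdha1* window were found in no GENCODE vM21 transcript of the gene, so this window may not lie before the start that is used. *Pdk1* has a second RefSeq window, at chr2:71874654-71874903 (plus strand), which held the core 0 times and had 38.4% G and C against 64.0% in the one shown. Among the other members, the core was found 2 times in the windows of *Pdhx* and *Pdp2*, 1 time in that of *Pdk4* and 0 times in that of *Dlat*. The 2 windows of *Pdk2* held it 2 and 0 times. Among all 32851 promoter windows of this length, 38.6% held the core. The 4 windows shown had from 61.6% to 67.6% G and C, and they were not compared with windows of like content. TAATC, the core letters of the sites bound by the photoreceptor factor CRX, was in none of these 4 windows and in 19.8% of all windows. Of the members with a window, only *Pdp2* had it, at 1 place. A match is a run of letters and not a bound site, and a window without one says nothing about the factor. *Pdp1* had no entry.

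Rods and retina were compared first, to ask which of these transcripts stood higher or lower in the rod pull-down than in the whole tissue. The pull-down holds mRNA bound to ribosomes, while the lysate was taken before it. A difference in the level of an mRNA in rods and one in its binding to ribosomes therefore cannot be told apart. In control mice 9 of the 10 members differed between rods and retina at an adjusted p under 0.05, and 59% of the 25584 genes tested did so. Of the members, 5 were higher in rods (*Pdhb*, *Dlat*, *Pdhx*, *Pdk3* and *Pdp2*, where 23.5% of all genes were higher) and 4 were lower (*Pdk1*, *Pdk2*, *Pdk4* and *Pdp1*, where 35.5% were lower). In Rodko mice 5 were higher (*Pdhb*, *Dlat*, *Pdhx*, *Pdk3* and *Pdp2*, against 23.9% of all genes), 3 were lower (*Pdk1*, *Pdk2* and *Pdp1*, against 35.1% of all genes), and *Pdha1* and *Pdk4* did not pass. Both mouse groups' rod libraries stood apart from both groups' retina libraries for 8 members, 5 above and 3 below, with no overlap of 6 against 6. Of all genes tested, 49.4% stood apart in this way, 21.4% above and 27.9% below. The kinases and the phosphatases each held members that went opposite ways.

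**Figure D1:**
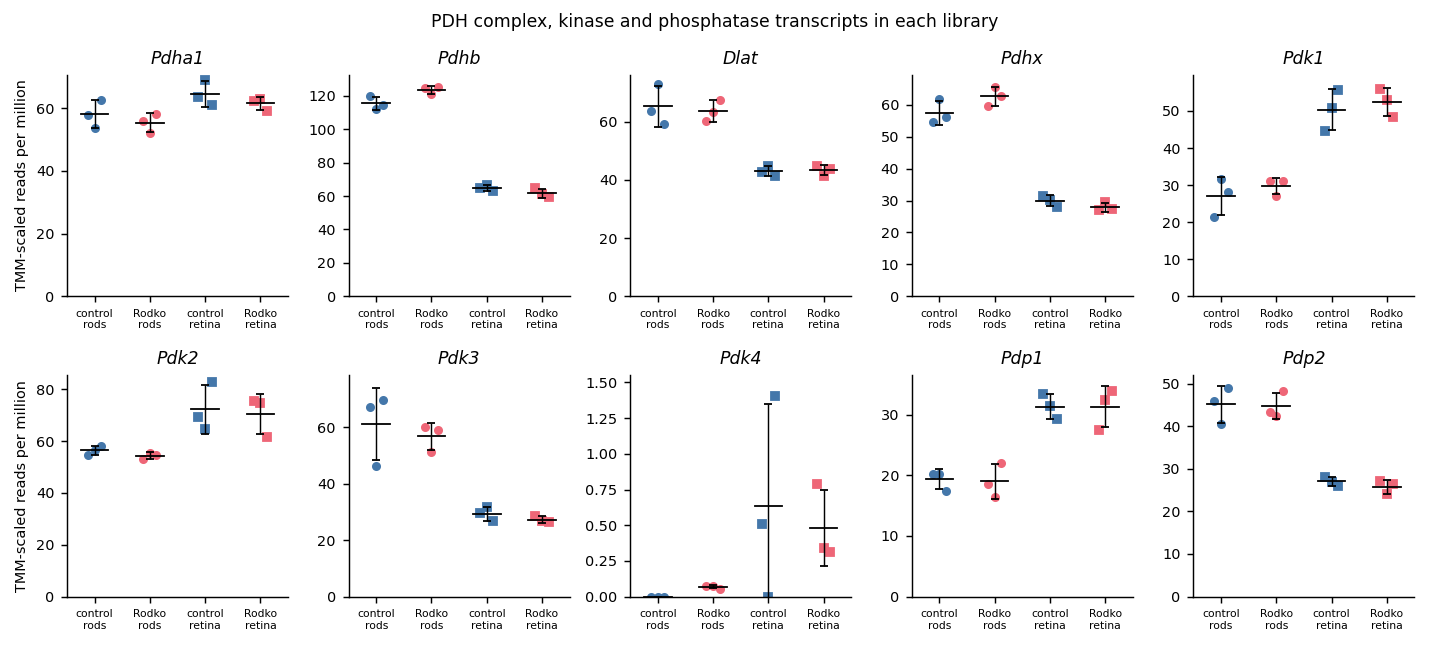
Each panel plots 1 transcript in CPM after TMM scaling (vertical axis, from 0) in control rods, Rodko rods, control retina and Rodko retina, with 1 point per library (circles rods, squares retina) and the mean with its SD in black. *Pdhb*, *Dlat*, *Pdhx*, *Pdk3* and *Pdp2* stand higher in all 6 rod libraries than in any retina library, *Pdk1*, *Pdk2* and *Pdp1* stand lower, and *Pdk4* is near 0 in rods.

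The subunits of the complex did not move as 1 block. *Pdhb*, the E1 beta chain, stood at 120, 112 and 115 CPM in control rods, at 125, 121 and 125 in Rodko rods, at 64.6, 66.6 and 63.0 in control retina and at 64.6, 61.3 and 59.3 in Rodko retina. All 6 rod libraries were above all 6 retina libraries. The log2 difference between rods and retina was 0.83 (SE 0.0681, adjusted p = 3.86e-08) in control mice and 1.003 (SE 0.0681, adjusted p = 4.21e-09) in Rodko mice, in the limma fit of all 12 libraries that gives every adjusted p between rods and retina below. *Pdha1*, the E1 alpha chain that the kinases phosphorylate, stood at 58.0, 53.9 and 62.6 in control rods, 55.9, 52.1 and 58.1 in Rodko rods, 63.6, 69.1 and 61.1 in control retina and 62.3, 63.1 and 59.2 in Rodko retina. Control rods and control retina overlapped, while the Rodko rods lay below the Rodko retina, as they did for 36.7% of all genes. Its log2 difference was -0.15 in both mouse groups (SE 0.0827, adjusted p = 0.126 in control and 0.124 in Rodko mice), with 95% intervals from -0.33 to 0.024 and from -0.33 to 0.023. *Map3k15* lies on the opposite strand and shares exon sequence with *Pdha1*, but it had only 0 to 21 reads per library.

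*Dlat*, the E2 core, ranged from 59.2 to 73.0 CPM over the 6 rod libraries and from 41.2 to 44.8 over the 6 retina libraries. *Pdhx*, the E3-binding protein, ranged from 54.5 to 65.6 in rods and from 27.0 to 31.5 in retina. Neither gene's rod libraries overlapped its retina libraries. The log2 difference was 0.60 (SE 0.0883, adjusted p = 2.54e-05) for *Dlat* and 0.94 (SE 0.0848, adjusted p = 1.21e-07) for *Pdhx* in control mice. In Rodko mice it was 0.55 (adjusted p = 5.30e-05) and 1.16 (adjusted p = 9.13e-09). *Dld*, which encodes the E3 enzyme shared with other dehydrogenases and is not among the 10 members, had a log2 difference of 0.995 (SE 0.0838, adjusted p = 5.52e-08) in control mice.

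The kinases changed rank by mean level between rods and retina. *Pdk3*, the kinase with the highest catalytic activity in the test tube, stood at 67.1, 46.3 and 69.5 CPM in control rods, 60.0, 51.2 and 59.0 in Rodko rods, 29.6, 31.7 and 26.8 in control retina and 28.5, 26.7 and 26.2 in Rodko retina. Rod libraries were all above retina libraries, and control rods replicate 2 was the lowest of the rods. The log2 difference was 1.03 (SE 0.132, adjusted p = 5.69e-06) in control mice and 1.06 (SE 0.132, adjusted p = 3.98e-06) in Rodko mice. *Pdk1*, a kinase known as a target of hypoxia-inducible factor, stood at 21.3, 31.6 and 28.2 in control rods, 31.1, 27.2 and 31.0 in Rodko rods, 44.7, 50.9 and 55.6 in control retina and 56.1, 53.0 and 48.5 in Rodko retina. All 6 rod libraries were below all 6 retina libraries, with control rods replicate 1 the lowest. The log2 difference was -0.91 (SE 0.130, adjusted p = 1.88e-05) in control mice and -0.82 (SE 0.130, adjusted p = 5.08e-05) in Rodko mice.

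*Pdk2*, the most widely expressed kinase of the family, stood at 54.6, 56.6 and 58.2 CPM in control rods, 53.0, 55.5 and 54.7 in Rodko rods, 69.5, 64.5 and 82.6 in control retina and 75.6, 74.6 and 61.7 in Rodko retina. The rod libraries were below the retina libraries without overlap, and they were closer to each other than the retina libraries were. The log2 difference was -0.35 (SE 0.0992, adjusted p = 0.00696) in control mice and -0.37 (SE 0.0992, adjusted p = 0.00447) in Rodko mice.

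*Pdk4*, the kinase that fasting and fatty acids induce in muscle and other tissues, was hardly read at all. It had 0 reads in each of the 3 control rod libraries, 1 read in each of the 3 Rodko rod libraries, 11, 0 and 35 reads in control retina and 16, 8 and 6 reads in Rodko retina. Control retina replicate 2, with 0 reads, overlapped the rods. Control retina (0.690 CPM over the group) stood 9.61-fold above a floor of 3 reads over the control rod group (0.0718 CPM). Of the 46 control retina reads 35 were in replicate 3, and without that library control retina stood 3.67-fold above the floor. Over the Rodko groups, 3 reads in rods against 30 in retina gave a ratio of 0.140 with a 95% exact interval from 0.0273 to 0.449. The floor covers counting error in control rods and not in control retina, so these folds are not lower bounds. The interval covers counting error only. The fitted log2 difference in control mice was -2.69 (SE 0.849, adjusted p = 0.0127), which depends on the pseudocount and is no bound, and the call was lost without control retina replicate 1 (adjusted p = 0.0545) or without replicate 3 (adjusted p = 0.0842). In Rodko mice the difference was -2.02 (adjusted p = 0.0523, or 0.0234 with rods and retina of the same number paired as a block).

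Sums of 4 marker lists were set beside the *Pdk4* reads of each retina library. In control retina replicates 1, 2 and 3, *Pdk4* had 11, 0 and 35 reads. The 5 pigment epithelium markers summed to 292, 68.0 and 281 CPM there, and the 6 microglia markers summed to 60.5, 29.2 and 61.1. Replicate 2, with 0 *Pdk4* reads, was the lowest in both of these sums, while replicates 1 and 3 were close to each other in both. The 8 Müller glia markers summed to 4286, 3882 and 4157, also lowest in replicate 2, and the 5 endothelium markers to 208, 182 and 175. In Rodko retina the pigment epithelium sums were 268, 378 and 151 and the microglia sums 42.5, 36.6 and 40.9. The Müller glia sums there were 3494, 3703 and 3791 and the endothelium sums 148, 177 and 189. *Pdk4* had 16, 8 and 6 reads in these libraries. None of the 4 sums ran in that order, and those of Müller glia and endothelium ran in the opposite order. The part of other cells in the *Pdk4* reads was not tested.

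The phosphatases went opposite ways. *Pdp2* stood at 46.0, 40.5 and 49.1 CPM in control rods, 43.4, 42.5 and 48.2 in Rodko rods, 28.1, 26.9 and 26.1 in control retina and 27.1, 24.0 and 26.4 in Rodko retina. *Pdp1*, the phosphatase that calcium stimulates, stood at 20.3, 20.3 and 17.4 in control rods, 18.6, 16.4 and 22.1 in Rodko rods, 33.5, 31.4 and 29.2 in control retina and 27.5, 32.5 and 34.0 in Rodko retina. The 6 rod libraries were above the retina libraries for *Pdp2* and below them for *Pdp1*, with no overlap. The log2 difference for *Pdp2* was 0.74 (SE 0.0950, adjusted p = 6.57e-06) in control mice and 0.79 (adjusted p = 2.74e-06) in Rodko mice. For *Pdp1* it was -0.70 (SE 0.123, adjusted p = 0.000149) and -0.72 (adjusted p = 9.75e-05).

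**Figure D2:**
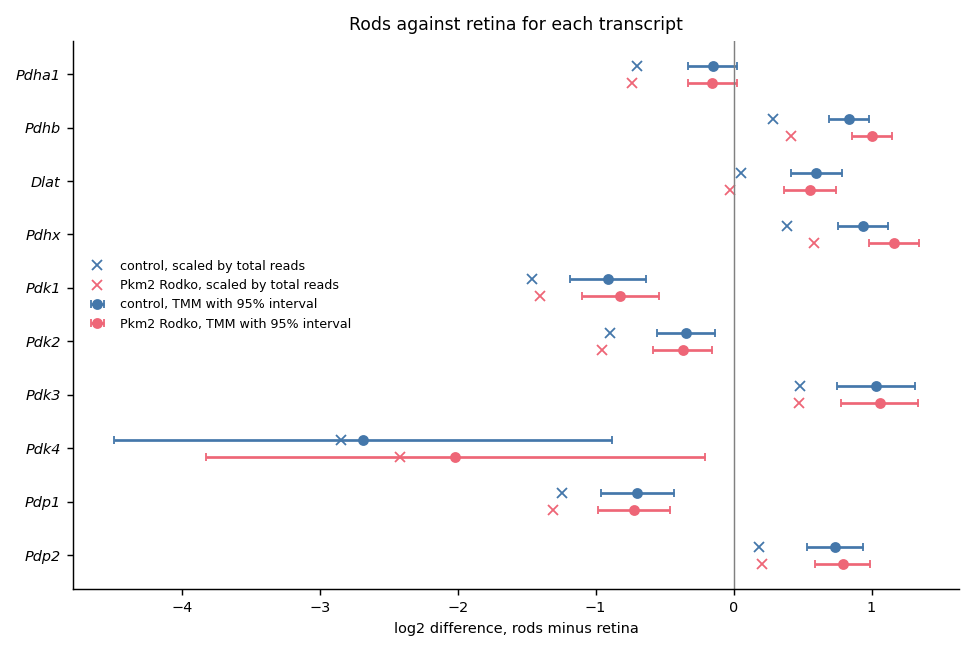
Points give the log2 difference between rods and retina (horizontal axis) for each transcript in control (blue) and *Pkm2* Rodko mice (red) under TMM scaling with its 95% interval, and crosses give the difference when libraries were scaled by total reads. *Pdhb*, *Pdhx* and *Pdk3* stay right of 0 under both scalings and *Pdk1*, *Pdk2*, *Pdk4* and *Pdp1* stay left of it, while *Dlat* moves to about 0, to 0.050 in control and -0.030 in Rodko mice.

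How the 2 fractions were put on 1 scale bore on some of these calls. The median of all genes was -0.37 on the log2 scale in control mice under TMM and -0.76 when libraries were scaled by total reads only. By total reads 2184 genes (8.43%) were higher and 12706 (49.1%) lower in control rods, against 6001 (23.5%) and 9083 (35.5%) under TMM. *Pdhb*, *Pdhx* and *Pdk3* stayed higher and *Pdk1*, *Pdk2* and *Pdp1* stayed lower, each at an adjusted p under 0.05, under TMM, RLE (the median of ratios over all 12 libraries), total reads and the values as deposited, in both mouse groups. By total reads *Dlat* (log2 difference 0.050, adjusted p = 0.658) and *Pdp2* (0.19, adjusted p = 0.0860) no longer passed in control mice, and *Pdha1* was lower in rods (-0.70, adjusted p = 1.32e-06). *Pdha1* also passed as lower in control rods under RLE (-0.22, adjusted p = 0.0309) and by DESeq2 (-0.22, adjusted p = 0.0184). Relative to the median gene under TMM, the control differences were 1.40 for *Pdk3*, 1.31 for *Pdhx*, 1.20 for *Pdhb*, 1.10 for *Pdp2*, 0.97 for *Dlat*, 0.21 for *Pdha1*, 0.019 for *Pdk2*, -0.33 for *Pdp1*, -0.54 for *Pdk1* and -2.32 for *Pdk4*.

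Shares within a library do not depend on how libraries were scaled, and dividing reads by exon length lets genes be compared with each other. Lengths were the summed exons of each gene in GENCODE vM21 and ran from 2561 bases (*Pdk3*) to 7779 bases (*Pdk1*), and a gene model longer than the transcripts that retina uses would lower a level. Among the kinases of control rods, *Pdk3* made up 52.4% ± 6.28 (SD, n = 3) of the reads per kilobase, *Pdk2* 39.8% ± 4.22 and *Pdk1* 7.82% ± 2.14. In control retina *Pdk2* led with 55.6% ± 3.66, followed by *Pdk3* with 28.2% ± 4.01 and *Pdk1* with 15.8% ± 1.09. Rodko rods had 51.2% ± 2.25, 39.9% ± 2.54 and 8.84% ± 0.292 for *Pdk3*, *Pdk2* and *Pdk1*, and Rodko retina had 26.7% ± 1.52, 56.0% ± 1.797 and 17.0% ± 0.311. The *Pdk3* share was at least 45.2% in every rod library and at most 31.5% in every retina library. *Pdk4* was under 1% of the kinase reads per kilobase in every library, its highest share being 0.907% in control retina.

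**Figure D3:**
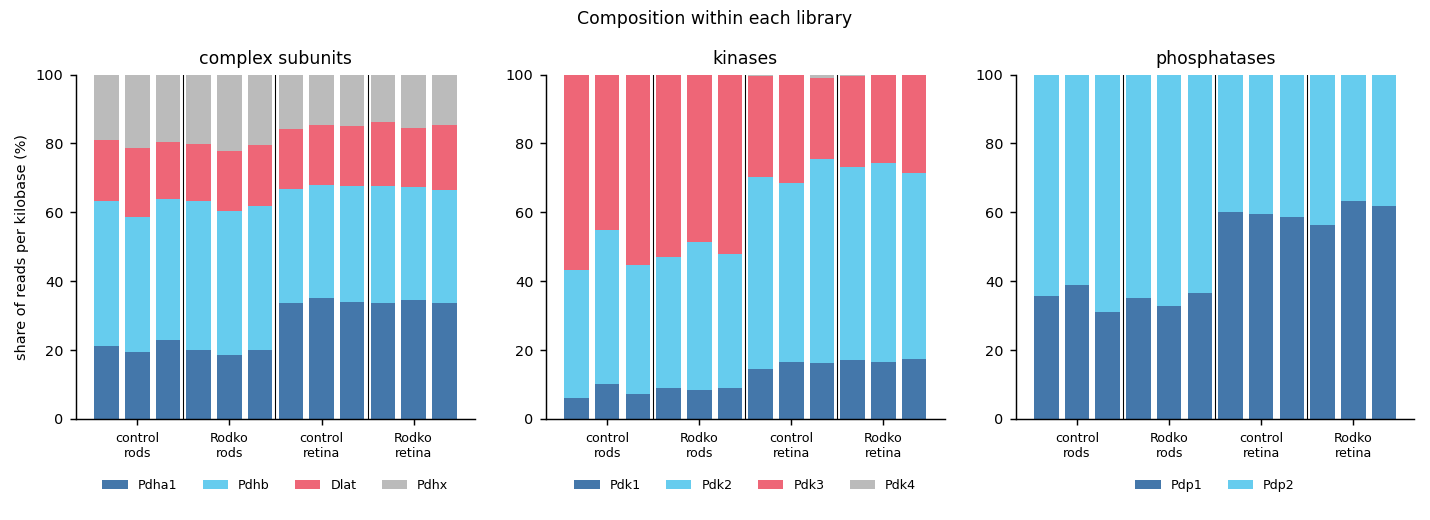
Stacked bars give, for each of the 12 libraries, the share (%) of each gene among the reads per kilobase of the complex subunits (left), kinases (middle) and phosphatases (right), with 3 bars per group. *Pdk3* takes 45.2% to 56.7% of the kinases in control rods and 23.7% to 31.5% in control retina, and *Pdp2* takes 61.2% to 69.0% of the phosphatases in control rods and 39.96% to 41.4% in control retina.

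Per length, the ratio of the E1 chains was higher in rods than in retina. Its size within a fraction rests on the exon lengths used, so it does not show whether the chains were in balance. The ratio of *Pdhb* to *Pdha1* was 0.971 ± 0.0341 (SD, n = 3) in control retina and 0.971 ± 0.0313 in Rodko retina. It was 1.93 ± 0.134 in control rods and 2.17 ± 0.0800 in Rodko rods. Every rod library, the lowest at 1.77, was above every retina library, the highest at 1.003. *Pdhx* to *Dlat* was 1.10 ± 0.0734 and 1.23 ± 0.0669 in control and Rodko rods, against 0.868 ± 0.0411 and 0.804 ± 0.0714 in control and Rodko retina. The ratio of *Pdp2* to *Pdp1* was 1.87 ± 0.330 in control rods, 1.88 ± 0.163 in Rodko rods, 0.683 ± 0.0206 in control retina and 0.659 ± 0.105 in Rodko retina.

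The sum of the kinases over the sum of the phosphatases, per length, was 3.68 ± 0.247 in control rods, 3.59 ± 0.240 in Rodko rods, 3.51 ± 0.422 in control retina and 3.48 ± 0.481 in Rodko retina. These ratios overlapped between rods and retina, although the gene with the highest mean per length differed in each class. In control rods replicate 2 *Pdk3* was only 1.01 times *Pdk2* per length. The kinases over the 4 subunits came to 0.614 ± 0.0679 in control rods and 0.570 ± 0.0217 in Rodko rods, against 0.814 ± 0.0888 and 0.821 ± 0.0485 in control and Rodko retina. The highest rod library (0.674) was below the lowest retina library (0.747). These shares and ratios were not tested, and they are of mRNA, not of protein or of enzyme activity.

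Ordered by level per kilobase, control rods ran *Pdhb* (29.9 CPM per kilobase), *Pdk3* (23.8), *Pdk2* (17.9), *Pdha1* (15.6), *Pdhx* (14.6), *Dlat* (13.4), *Pdp2* (7.94), *Pdp1* (4.29), *Pdk1* (3.47) and *Pdk4* (0). Libraries overlapped between the neighbours *Pdk3* and *Pdk2*, *Pdha1* and *Pdhx*, *Pdhx* and *Dlat*, and *Pdp1* and *Pdk1*. Control retina ran *Pdk2* (22.8), *Pdha1* (17.3), *Pdhb* (16.8), *Pdk3* (11.5), *Dlat* (8.78), *Pdhx* (7.62), *Pdp1* (6.96), *Pdk1* (6.48), *Pdp2* (4.75) and *Pdk4* (0.182). Here *Pdha1* and *Pdhb*, *Pdhx* and *Pdp1*, and *Pdp1* and *Pdk1* overlapped. *Pdk2* was therefore the leading transcript of the 10 in retina and the third in rods.

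The genotypes were compared next, to ask whether the PDH genes differed with the deletion of *Pkm2* in rods. None of the members passed in either fraction: in rods 9 were tested, *Pdk4* being below the filter, and in retina all 10 were. Of all genes, 0.0194% (4 of 20658) passed in rods and 0.00391% (1 of 25590) in retina, in limma on log2(value + 1). They were *Pkm*, *Adpgk*, *Gm6560* and *Gm6992* in rods and *Pkm* in retina, all lower in Rodko mice and, *Pkm* apart, named after their values were seen. The study lists *Gm6560* and *Gm6992* as pyruvate kinase pseudogenes, and whether their reads came from *Pkm* was not tested. At an unadjusted p under 0.05 there were 986 genes in rods (4.77%) and 1069 in retina (4.18%), and none of the members. Over all 341 member tests of genotype, under every scaling, filter, tool and omitted library tried, DESeq2 and edgeR included, none passed, and the lowest adjusted p was 0.697.

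The intervals give, gene by gene, the range of change that goes with the spread of these libraries. They take no account of how many genes were tested. Their bounds are therefore not the largest change that could have gone without a call. In rods the log2 difference between Rodko and control was 0.11 for *Pdhb* (95% interval -0.070 to 0.29), -0.061 for *Pdha1* (-0.27 to 0.15), -0.026 for *Dlat* (-0.25 to 0.20) and 0.13 for *Pdhx* (-0.078 to 0.34). Among the kinases it was 0.16 for *Pdk1* (-0.15 to 0.47), -0.045 for *Pdk2* (-0.24 to 0.15) and -0.076 for *Pdk3* (-0.38 to 0.23). It was -0.023 for *Pdp1* (-0.33 to 0.28) and -0.0046 for *Pdp2* (-0.24 to 0.23). The bound farthest from 0 was the 0.47 of *Pdk1*, while the interval for *Pkm* ran from -1.38 to -1.02.

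*Pdhb* was the only tested member whose 3 Rodko rod libraries all lay above the 3 control rod libraries, and 4.49% of all genes did that. *Pdk4* had 1 read in each Rodko rod library and 0 in each control rod library, which are too few for a fold. In rods, the 9 bipolar markers had a median log2 difference of -0.49 between Rodko and control, against 0.043 for the 12 rod markers. The median was -0.41 for amacrine, -0.40 for ganglion, -0.38 for Müller glia, -0.30 for endothelium and -0.26 for horizontal cell markers. It was -0.10 for cone, -0.028 for microglia and -0.0097 for pigment epithelium markers. None of these markers passed the test. The part of these other cells in the members' values was not tested.

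**Figure D4:**
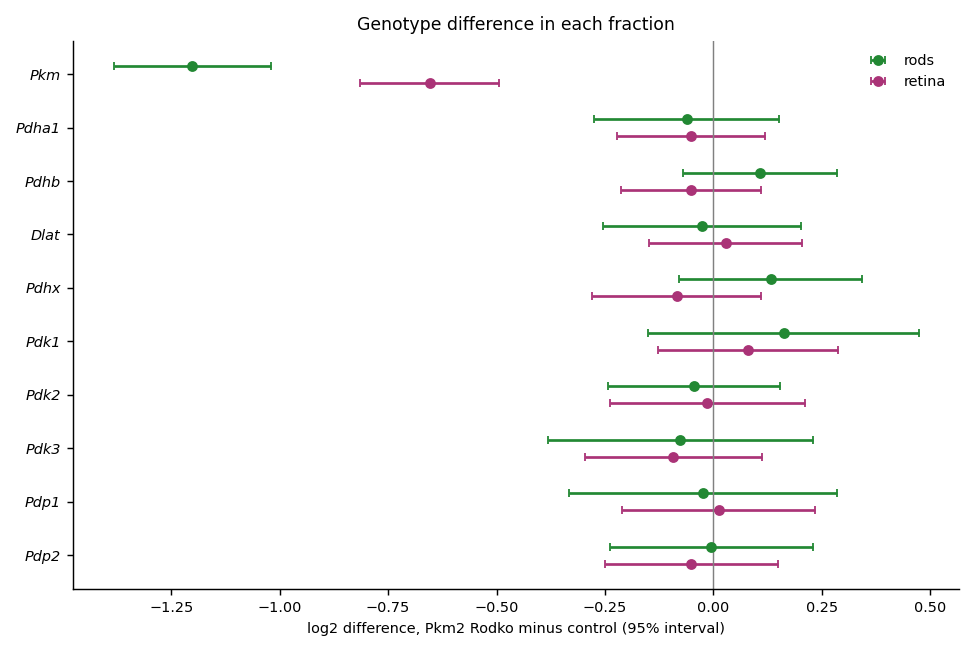
Points give the log2 difference between *Pkm2* Rodko and control (horizontal axis) with its 95% interval in rods (green) and in retina (purple), for *Pkm* and for the 9 members tested in both fractions. *Pkm* lies at -1.20 in rods and -0.65 in retina, and every other interval crosses 0.

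In retina the differences were of the same small size. They ran from -0.093 (*Pdk3*, 95% interval -0.30 to 0.11) to 0.080 (*Pdk1*, -0.13 to 0.29) over the 9 members other than *Pdk4*, and the libraries of the 2 genotypes overlapped for all 10 (9.29% of all genes had no overlap). *Pdk4*, at 11, 0 and 35 reads against 16, 8 and 6, had an interval from -1.497 to 2.61, so a change of several fold would have gone unseen. The genotype difference in rods was then compared with that in retina in the fit of all 12 libraries. No gene of 25584 passed in limma (1128, or 4.41%, at an unadjusted p under 0.05, and 1, *Pkm*, by DESeq2). *Pkm* itself, the targeted gene, was at -0.54 (95% interval -0.76 to -0.32, adjusted p = 0.978 in limma). A member that did not pass this limma test may therefore still differ in its genotype effect between rods and retina. The members ranged from -0.046 (*Dlat*) to 0.67 (*Pdk4*). The highest of the better-read members were *Pdhx* at 0.22 (95% interval -0.031 to 0.48) and *Pdhb* at 0.17 (-0.037 to 0.37), each with an adjusted p of 0.978.

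The genes around PDH were read from lists of its neighbours, counted under TMM in control mice. Their counts stand beside 23.5% of all genes higher and 35.5% lower under TMM, and 8.43% higher and 49.1% lower by total reads. Of 14 TCA cycle enzymes, which use the acetyl-CoA that PDH makes, 13 were higher in rods and 1 was lower, and by total reads 6 were higher and 1 lower. *Mdh2*, the last enzyme of the cycle, had a log2 difference of 1.34 (adjusted p = 1.09e-09) and *Sdha*, the flavoprotein of complex II, one of 0.99 (adjusted p = 3.96e-09). The exception was *Suclg2*, the GTP-forming subunit of succinyl-CoA synthetase, at -3.28 (adjusted p = 3.83e-06), and the smallest of the higher ones was *Idh3b*, at 0.37 (adjusted p = 0.00262), or -0.18 by total reads. The median of the list was 0.70, against 0.22 for the PDH members and -0.37 for all genes.

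Of 7 genes that bring in pyruvate or use it otherwise, 2 were higher and 3 lower, or 1 and 4 by total reads, by which *Ldhb*, the other lactate dehydrogenase chain, was also lower (-0.83, adjusted p = 0.000134). Under TMM *Ldhb* was at -0.28 (adjusted p = 0.129). *Ldha*, which makes lactate, had a log2 difference of 1.55 (adjusted p = 5.98e-10) and was still higher, at 1.002, by total reads. The 2 subunits of the mitochondrial pyruvate carrier parted, *Mpc2* at 0.70 (adjusted p = 8.13e-05, but 0.15 and not past the test by total reads) and *Mpc1* at -0.88 (adjusted p = 0.000219). *Gpt2*, which turns pyruvate into alanine, was at -1.23 (adjusted p = 6.67e-05) and *Pcx*, which makes oxaloacetate from it, at -1.04 (adjusted p = 9.82e-07).

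Among 9 genes of the related 2-oxoacid dehydrogenases and their regulators, 5 were higher and 3 lower, but by total reads none was higher and 4 were lower. *Ogdhl*, a form of the oxoglutarate dehydrogenase E1, stood at 0.74 (adjusted p = 1.52e-05). The kinase and the phosphatase of the branched-chain enzyme went apart, *Bckdk* at 0.67 (adjusted p = 3.49e-05) and *Ppm1k* at -3.22 (adjusted p = 6.92e-10), and *Dhtkd1* was at -3.84 (adjusted p = 0.000275). Of 7 genes that supply the lipoate and thiamine cofactors, 3 were higher and 2 lower, or 0 and 2 by total reads, with *Lipt2* at 0.76 (adjusted p = 0.00394) and *Slc19a3*, a thiamine carrier, at -2.63 (adjusted p = 0.00287).

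Of 9 transcription factors and coactivators known to act on *Pdk* genes, 5 were higher in rods and none was lower, or 4 and 2 by total reads. *Ppard*, a nuclear receptor for fatty acids, was at 1.25 (adjusted p = 6.70e-09) and *Hif1a*, the oxygen-regulated factor, at 1.11 (adjusted p = 4.26e-07), and both stayed higher by total reads, at 0.70 and 0.56. *Pdk1*, which is known as a target of the latter, was lower in rods under all 4 scalings, and a link between these 2 genes was not tested. *Pparg* (-0.25, adjusted p = 0.802) and *Esrra* (-0.22, adjusted p = 0.255) did not pass under TMM, and *Esrra* was lower by total reads (-0.77, adjusted p = 0.000692). No gene of these 6 lists passed in either genotype comparison. *Pdha2*, the alpha chain of testis, had 0 reads in every library, and *Pdpr*, the regulatory subunit of the phosphatase, had a log2 difference of -0.42 (adjusted p = 0.0324) in control mice and -0.078 (adjusted p = 0.696) in Rodko mice. By total reads it was lower in both, at -0.97 (adjusted p = 8.38e-05) in control and -0.66 (adjusted p = 0.0023) in Rodko mice.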

How the data were processed

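Rod-TRAP and retinal RNA was sequenced from 2 genotypes, with 3 libraries in each of 4 groups. What the authors deposited is a signal: for every gene, the reads of a library over its size factor, kept to 1 decimal. The size factors equal the median of ratios over the 6 libraries of each fraction, so rods and retina were scaled apart. Submitters' processing notes name CASAVA 1.8.2, HISAT2, DESeq2, edgeR and GRCm39 without roles. Whether counting used strand is not given in the sources used here.

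Whole reads were recovered from the smallest step in each library (at least 99.995% of the positive values of a library came within 0.051 of a value that whole reads give), and the count tests run on them as alternatives called the numbers of genes given in the closing section. The members and lists were chosen with earlier results of these data known, and the pathway genes named are those with the largest and smallest differences between rods and retina in each list, beside *Mpc1* and *Ldhb*, which were added after their values were seen. All libraries were used, replicates all differed by more than counting noise, and 3 libraries against 3 allow no exact p below 0.1, so limma, which pools the spread across genes, was used. Genotypes were compared within each fraction by limma (3.58.1, R 4.3.3) with a variance trend on log2(value + 1) over genes with a mean of at least 1 in a genotype. The contrasts of rods against retina, and of the genotype difference between them, came from 1 limma fit of 4 group means on log2(reads scaled by TMM + 1), TMM from edgeR (4.0.16). Benjamini-Hochberg adjustment ran over all genes tested, with a threshold of 0.05. A fold change on this scale understates the change of low genes. Rods and retina of the same number deviated together (correlations from 0.163 to 0.397 over the 6 pairs), so their numbers pair them, though the labels do not say so. Control and Rodko libraries of the same number did not. Exon lengths came from GENCODE vM21 by Ensembl identifier (91.85% of genes had one) and promoters from RefSeq on GRCm38.p6. DESeq2 (1.42.0) and edgeR quasi-likelihood tests, other scalings, filters, pseudocounts and the omission of each library were tried. Python 3.11.15 with numpy 2.4.6, pandas 2.3.3, scipy 1.17.1 and matplotlib 3.10.9 was also used. The scripts were tested on simulated data. Protein sequences were not used here.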

Additional observations from a re-analysis of the deposited data

How the results depend on the processing

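With 3 libraries a group, *Pdk4* had 35 reads or fewer in every library and its reads differed widely within control retina (11, 0 and 35). None of the 341 member tests of genotype and none of the 219 of its difference between fractions passed, under any alternative run. In rods, the genes that passed for genotype were 0 higher and 4 lower, or 5 lower by DESeq2 and 4 by edgeR on the recovered reads. They became 4 higher and 4 lower with the replicate number as a block, although control and Rodko libraries share only a number, 0 lower without the variance trend, by which *Pkm* did not pass, and 17 lower in 1 fit of all 12 libraries. In retina the 1 lower gene, *Pkm*, also called by DESeq2 and edgeR, became 0 with 10 or more reads required in every library and 0 with the replicate block.

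Leaving out 1 library at a time gave 2 to 4 genes lower and 0 to 4 higher in rods (2 lower without any 1 control rod library or without Rodko rods replicate 3, and 4 higher without control rods replicate 3), and 0 to 2 lower and 0 to 4 higher in retina (2 lower without control retina replicate 2, 0 lower without any other 1, and 4 higher without control retina replicate 3). The log2 genotype difference then ran in rods from -0.099 to 0.060 for *Dlat*, -0.26 to 0.025 for *Pdk3*, -0.14 to 0.074 for *Pdp1* and -0.078 to 0.052 for *Pdp2*, and in retina from -0.0089 to 0.16 for *Pdk1* and -0.86 to 1.62 for *Pdk4*. Between fractions it ran from -0.11 to 0.052 for *Dlat* and -0.35 to 2.01 for *Pdk4*. The sign also turned for *Pdp2* in rods with edgeR (0.0054) and TMM within the fraction (0.0093), and for *Pdk4* in retina with DESeq2 (-0.41) and edgeR (-0.46 with TMM, -0.45 with RLE). The cause was not tested.

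Between rods and retina, requiring 10 or more reads in every library left 3614 lower genes in control and 3586 in Rodko mice, since fewer genes were tested. Scaling by total reads gave 2184 and 2198 higher genes, and the deposited values gave 1942 and 2076. Both left 3 members higher in each mouse group, and with RLE they gave 5 members lower in Rodko mice, *Pdha1* and *Pdk4* joining the others. *Dlat* in Rodko mice turned to -0.030 by total reads and -0.048 as deposited. Without 1 library, 5 members stayed higher, 3 to 4 were lower, and *Pdk4* ran from -4.02 to -1.65 in control and from -2.23 to -1.63 in Rodko mice. The replicate block of rods and retina changed no other member's call than that of *Pdk4* in Rodko mice. By DESeq2, 1 gene (*Pkm*) differed in its genotype effect between rods and retina.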

Other observations

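The genes whose log2 levels followed each kinase most closely over the 12 libraries were searched among 11128 genes with a mean of at least 100 TMM-scaled reads. *Pdk3* was most like *Got1*, the cytosolic aspartate aminotransferase (Pearson r = 0.990), and *Pdk1* was most like *Ccdc184* (r = 0.989). For *Pdk2* it was *Myo1d*, an unconventional myosin (r = 0.951), and for *Pdk4* it was *Plpbp* (r = 0.905). The 12 libraries fall into rods and retina, which set most of these values: 3284 genes had an r above 0.9 with *Pdk3*, 1906 with *Pdk1*, 183 with *Pdk2* and 2 with *Pdk4*. Within the 6 rod libraries alone r was 0.956 for *Pdk3* with *Got1* and 0.9748 for *Pdk1* with *Ccdc184*, and within the 6 retina libraries it was 0.773 and 0.815. For *Pdk2* with *Myo1d* r was 0.393 within rods and 0.913 within retina, and for *Pdk4* with *Plpbp* it was 0.846 and 0.787. The genes were chosen for their r, and the 6 libraries of a fraction share the depth and the other cells of that fraction, so these values are a description without a test.

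*Pdpr*, the regulatory subunit of the phosphatase, varied more within a group than the 10 members other than *Pdk4* did in rods of *Pkm2* Rodko mice. It stood at 21.6, 26.2 and 33.9 CPM after TMM scaling there and at 22.1, 23.9 and 18.9 in control rods, with a log2 difference of 0.32 (95% interval -0.033 to 0.67, adjusted p = 0.932 in limma). *Dld*, the E3 subunit, stood at 175, 172 and 206 in Rodko rods and at 170, 178 and 185 in control rods. Rodko rods replicate 3 was the highest of the 6 rod libraries for both genes.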
